A study of Mus musculus with 12 samples.

Results

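The genes described here are the Toll-like receptors of the mouse and the signalling chain that leads from them to the transcription factor NF-kB. They were chosen by symbol: every Toll-like receptor (Tlr), IRAK, TRAF, IKK, NF-kB or Rel gene in the table, together with Myd88, Tirap, Chuk, Tbk1, Tollip, the TRIF genes, Cd14 and Ly96, wherever the table holds them. This gave 25 of 1448 genes. They fall into surface receptors (Tlr1, Tlr2, Tlr4, Tlr5 and Tlr6), co-receptors (Cd14 and Ly96), endosomal receptors (Tlr3, Tlr7, Tlr8, Tlr9, Tlr11, Tlr12 and Tlr13), adaptors and ubiquitin ligases (Myd88, Tollip, Traf1, Traf2 and Traf6), kinases (Tbk1 and Ikbke) and NF-kB subunits (Nfkb1, Nfkb2, Rela and Relb).

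Toll-like receptors recognise molecules of microbes. The surface receptors bind lipids and proteins of bacteria, with TLR4 reading lipopolysaccharide through the co-receptors CD14 and MD-2, and the endosomal receptors mostly bind nucleic acids. Most signal through the adaptor MyD88 and the ligase TRAF6 to the IKK kinases, which free NF-kB dimers to enter the nucleus. There NF-kB switches on cytokine and chemokine genes and also genes of its own inhibitors, so that the response limits itself. Macrophages of the peritoneum use this chain to sense bacteria that reach the abdominal cavity.

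Total RNA of mouse peritoneal macrophages was assayed by NanoString nCounter, a method in which barcoded probes bound to their transcripts are counted, and the deposited values are normalized log2 values. There were 4 groups of 3 mice: young untreated mice (3 to 4 months old), young mice given PF-044, aged untreated mice (20 to 22 months old), and aged mice given PF-044. PF-044 is an antagonist of EP2, a prostaglandin E2 receptor that raises cyclic AMP, and was given by oral gavage at 2.5 mg/kg per day for 6 weeks. The labels give the agent of the untreated mice as none. Gavage with a vehicle, strain, sex and cell sorting are named by none of the sources used here.

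Of the 25 genes, Tlr3 (a receptor of double-stranded RNA), Tlr5 (of flagellin) and Tlr11 and Tlr12 (of a protozoan profilin) were at the floor of the table, 20 on the linear scale or 4.32 on the log2 scale, in all 12 samples and were not tested. The other 21 were tested, and 20 of them were above the floor in every sample. Aged untreated replicate 2 stands apart: it had 741 genes of the table at the floor, against 333 and 527 in aged untreated replicates 1 and 3 and 404 to 467 in the other groups, and its lowest value above the floor was 75.9 linear units. In count equivalents inferred from the steps of the values, its total was 175127, against 622732 and 533930 in the other aged untreated mice and 644844 to 927614 in the other groups. The members above the floor rested on 25 (Tlr13) to 189 (Cd14) count equivalents in that sample and on 26 (Ikbke, aged untreated replicate 3) to 1925 (Cd14, young untreated replicate 3) in the others. Array weights estimated with limma, which score how closely a sample follows its group, were lowest in aged untreated replicates 1 and 2 (0.0934 and 0.176), against 0.707 to 4.29 in the other samples. Because of its few counts, members were also tested without aged untreated replicate 2. Every other mouse, including aged untreated replicate 1 with the lowest weight, was left out in turn as well.

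Markers of cell types moved with the groups. All 6 macrophage markers in the table were detected, with Csf1r, Adgre1 and Cd68 above the floor in every sample and Cd163 at the floor in each of the aged untreated mice. Their summed linear level was 9258 to 10044 in young untreated, 6696 to 7590 in young PF-044, 4033 to 4758 in aged untreated and 6307 to 6998 in aged PF-044 mice, and 5 of the 6 fell with age in untreated mice. The B cell markers Ms4a1 and Blk summed to 5740.0 to 6979.7, 5305 to 8449, 37316 to 42840 and 17790.5 to 21567 in the same order, and both rose with age in untreated mice. Markers of large resident peritoneal macrophages, 6 of 6 detected, summed to 30820 to 31585, 33308 to 34262, 4996 to 6396 and 15670 to 17205, and Gata6 among them was at the floor in aged untreated replicate 2. The 7 T cell markers summed to 1971 to 2204, 1734 to 1944, 942 to 1038 and 1788 to 1866. The 8 mast cell and basophil markers summed to 10457 to 11868, 11616 to 14568, 5574 to 6235 and 6298 to 9083, and 6 of them fell with age in untreated mice while 0 rose. The 5 NK cell markers summed to 494 to 557, 421 to 514, 171 to 385 and 613 to 670, with 0 rises and 2 falls in that comparison. Markers of small macrophages, monocytes and dendritic cells, 5 of 6 detected, summed to 3609 to 3695, 3497 to 3845, 3847 to 4310 and 3996 to 4597, with 1 rise and 3 falls. Of 7 neutrophil markers, the defining Ly6g, Elane and Camp were at the floor in all samples, and the list summed to at most 250 linear units in any sample. Over all genes 21.2% rose and 32.9% fell with age in untreated mice. In such bulk RNA, fewer cells of a type and less RNA per cell cannot be told apart, and what part these cells have in the results below was not tested.

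Promoter sequences from RefSeq (mouse build GRCm38.p6, from 250 bases before to 50 bases after a start) were read for 19 of the 25 genes. They are shown for the subunit gene Nfkb2 and the receptor gene Tlr2, which hold several matches to the kappa B consensus bound by NF-kB, and for the subunit gene Rela, which holds none. Capitals mark a match on either strand. The consensus occurred in 3 of the 19 genes (Nfkb2, Tlr2 and Tlr3). By promoter, it occurred in 5 of the 23 of these genes and in 8.46% of the 32851 promoters searched. Overlapping Nfkb2 promoters share a match. TGACGTCA, the cyclic AMP response element, occurred on either strand in 0 of the 19 genes and in 1.79% of all those promoters. The first start of Nfkb2 (chr19:46304487-46304786, plus strand) has 3 matches, of which a pair overlaps, and Tlr2 (chr3:83841559-83841858, minus strand) likewise has 3 with a pair overlapping. The Rela promoter lies at chr19:5637291-5637590 on the plus strand.
Nfkb2: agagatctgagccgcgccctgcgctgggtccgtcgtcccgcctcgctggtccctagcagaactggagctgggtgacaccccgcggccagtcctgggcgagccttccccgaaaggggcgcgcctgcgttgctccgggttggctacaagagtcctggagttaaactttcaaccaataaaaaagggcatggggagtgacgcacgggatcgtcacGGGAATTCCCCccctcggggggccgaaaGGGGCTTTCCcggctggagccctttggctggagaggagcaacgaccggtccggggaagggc
Tlr2: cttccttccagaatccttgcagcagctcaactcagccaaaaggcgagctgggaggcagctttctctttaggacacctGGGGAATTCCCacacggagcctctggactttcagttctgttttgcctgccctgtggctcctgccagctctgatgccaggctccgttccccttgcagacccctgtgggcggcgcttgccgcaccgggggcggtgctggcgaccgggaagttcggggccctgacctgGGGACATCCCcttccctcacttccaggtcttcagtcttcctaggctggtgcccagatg
Rela: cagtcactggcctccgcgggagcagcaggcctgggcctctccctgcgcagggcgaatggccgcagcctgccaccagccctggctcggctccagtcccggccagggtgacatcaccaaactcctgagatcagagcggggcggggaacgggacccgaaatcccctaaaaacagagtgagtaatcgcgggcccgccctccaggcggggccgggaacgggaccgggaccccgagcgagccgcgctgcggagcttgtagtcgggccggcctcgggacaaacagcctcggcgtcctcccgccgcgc

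The first comparison asks how the chain differs between aged and young mice without the drug. In aged untreated mice the MD-2 gene Ly96 and the receptor genes Tlr7, Tlr6, Tlr4, Tlr9 and Tlr1 were higher, as was the subunit gene Relb, while the co-receptor gene Cd14, the receptor genes Tlr2 and Tlr13, the adaptor gene Traf1, the kinase gene Ikbke and the subunit genes Nfkb1, Nfkb2 and Rela were lower. With limma, 7 of the 21 members rose and 8 fell (adjusted p under 0.05 over 1190 genes). Over all genes, 54.0% passed, 21.2% higher and 32.9% lower, so the counts of members are near the background. The median change was -0.08 log2 units over the members and -0.07 over all genes. The direction of the small changes depends on how samples are scaled: centring on 4 reference genes moves the median change of all genes to 0.34, and 10 members then rose and 4 fell. The reference genes themselves were not steady: in this comparison Gusb fell by 1.51 (limma adjusted p 9.32e-09) and Gapdh by 0.51 (limma adjusted p 0.001), while changes of 0.30 for Hprt and 0.10 for Pgk1 missed the threshold. With PF-044 in aged mice Gusb rose by 0.76 and Gapdh by 0.38. Without aged untreated replicate 2, 6 members rose and 8 fell.

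Of the surface receptor genes, Tlr4, encoding the lipopolysaccharide receptor, had log2 values of 8.06, 8.43 and 8.22 in the young untreated mice and 8.99, 8.83 and 8.67 in the aged ones. The groups did not overlap, and the rise was 0.60 log2 units (SE 0.17, limma adjusted p 0.0111), although the call ended without young untreated replicate 1 (0.51, adjusted p 0.0508). Tlr2, whose product pairs with TLR1 or TLR6 to bind bacterial lipopeptides, read 7.58, 7.64 and 7.65 in young and 7.25, 7.35 and 7.22 in aged untreated mice. All aged values were below all young ones, a fall of 0.35 (SE 0.10, limma adjusted p 0.0108) that ends under each of 4 other scalings and turns to 0.06 on centring on the reference genes. The partner genes moved the other way on the deposited scale: Tlr6 rose by 0.89 (SE 0.13), from 6.89 ± 0.19 (SD, n = 3) to 7.78 ± 0.02, and Tlr1 by 0.33 (SE 0.11, limma adjusted p 0.0268), its means being 7.74 ± 0.07 and 8.07 ± 0.20. Tlr1 and Tlr6 lie next to each other in the RefSeq annotation with 0 protein-coding genes between them. The Tlr1 call ended on leaving out aged untreated replicate 1 or 2 or young untreated replicate 1 or 3 (0.26 to 0.32, limma adjusted p 0.0686 to 0.0921).

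The co-receptor genes of TLR4 went in opposite directions. Ly96, encoding the lipopolysaccharide-binding protein MD-2, read 8.04, 8.43 and 8.40 in young and 9.54, 9.43 and 9.38 in aged untreated mice. No values overlapped, and the rise was 1.16 (SE 0.15, limma adjusted p 4.4e-05). Cd14, encoding the protein that hands lipopolysaccharide to MD-2, read 10.44, 10.60 and 10.49 in young and 9.56, 9.49 and 9.48 in aged untreated mice. It fell by 0.998 (SE 0.071, limma adjusted p 2.31e-07), again without overlap. The within-sample difference of Ly96 minus Cd14, which a shift applied alike to both genes cannot alter, was -2.39, -2.17 and -2.09 in young and -0.02, -0.05 and -0.10 in aged untreated mice. Since these genes have different probes, only its shift between mice can be read, and not which transcript was the more abundant.

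**Figure D1:**
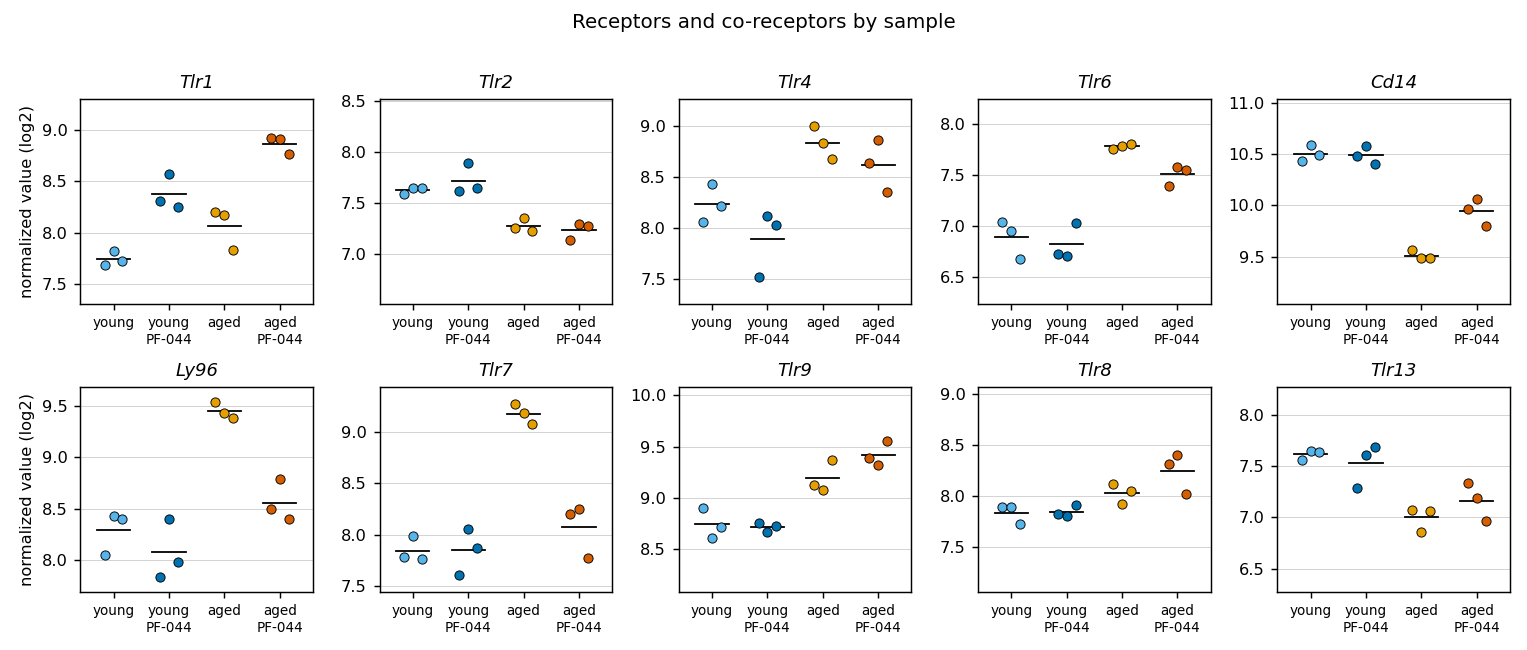
Normalized log2 values of the 10 receptor and co-receptor genes above the floor, by group. Each point is 1 mouse and each bar a group mean (n = 3). Ly96 and Tlr7 are highest in aged untreated mice (9.38 to 9.54 and 9.08 to 9.28), where Cd14 is lowest (9.48 to 9.56).

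Among the endosomal receptors, Tlr7, which binds single-stranded RNA, read 7.78, 7.99 and 7.76 in young and 9.28, 9.19 and 9.08 in aged untreated mice. The groups were well apart, with a rise of 1.34 (SE 0.14, limma adjusted p 7.07e-06). Its annotated neighbour Tlr8, with 0 protein-coding genes between, gave 0.19 (SE 0.10, limma adjusted p 0.15), from 7.84 ± 0.10 to 8.03 ± 0.10, and passed under 3 of the 4 other scalings. Tlr9, the receptor of unmethylated CpG DNA, rose by 0.45 (SE 0.09), from 8.74 ± 0.15 to 9.19 ± 0.16. Tlr13, which in mice binds bacterial ribosomal RNA, fell by 0.62 (SE 0.14, limma adjusted p 0.00209), its levels being 7.62 ± 0.05 and 7.00 ± 0.12, and did not pass on centring on the reference genes (-0.21, adjusted p 0.266).

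The adaptors in the core of the chain did not pass. Myd88, the adaptor that most Toll-like receptors share, read 7.97, 8.03 and 7.85 in young and 7.98, 7.65 and 7.98 in aged untreated mice. These ranges overlapped, with a change of -0.08 (SE 0.11, limma adjusted p 0.579). The ligase gene Traf6 gave 0.09 (SE 0.07), Tollip, encoding an inhibitor of IRAK kinases, 0.06 (SE 0.10), Traf2 -0.24 (SE 0.12) and Tbk1 -0.15 (SE 0.08). Traf6 passed as a rise under all 4 other scalings (0.25 to 0.49). Traf1, encoding a TRAF protein that is itself a target of NF-kB, fell by 0.91 (SE 0.11, limma adjusted p 2.28e-05), between means of 8.17 ± 0.02 and 7.26 ± 0.22. Ikbke, encoding IKK epsilon, a kinase of the interferon branch, read 6.86, 6.68 and 6.71 in young untreated mice and 5.63 and 5.09 in aged untreated replicates 1 and 3, and was at the floor in replicate 2. It was lower in every aged mouse (-1.73, SE 0.27, limma adjusted p 1.88e-04). In replicate 2 no gene had a value above the floor but under 75.9 linear units, and without that sample the fall was 1.39 (limma adjusted p 3.57e-05).

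The NF-kB subunit genes did not move together. Nfkb2, encoding the p100 precursor of the alternative pathway, read 10.15, 10.01 and 9.91 in young and 8.53, 8.81 and 8.59 in aged untreated mice. The aged values were all lower, by 1.38 on average (SE 0.08, limma adjusted p 2.99e-08). Rela, encoding the p65 subunit of the classical dimer, read 7.39, 7.29 and 7.26 in young and 6.21, 6.88 and 6.39 in aged untreated mice. It fell by 0.82 (SE 0.18, limma adjusted p 0.00204), with the aged replicate 2 nearest to the young mice, and by 1.02 without that replicate. Nfkb1, encoding the p105 precursor of p50, read 9.59, 9.59 and 9.57 in young and 8.91, 9.04 and 9.17 in aged untreated mice. No values overlapped, and the fall was 0.54 (SE 0.07, limma adjusted p 3.26e-05). Relb, encoding the partner of p52 in the alternative pathway, was the subunit gene that rose, by 0.67 (SE 0.08, limma adjusted p 2.3e-05), its means being 8.65 ± 0.02 and 9.32 ± 0.15. On centring on the reference genes the falls of Nfkb1 and Rela did not pass (-0.13 and -0.42, limma adjusted p 0.274 and 0.0619), while those of Nfkb2, Cd14, Traf1 and Ikbke and the rise of Relb did. Within samples, Nfkb2 minus Nfkb1 was 0.34 to 0.55 in young and -0.58 to -0.24 in aged untreated mice. The fall of Nfkb2 thus exceeded that of Nfkb1 under any scaling that shifts both genes of a sample alike, which quantile normalization need not do.

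**Figure D2:**
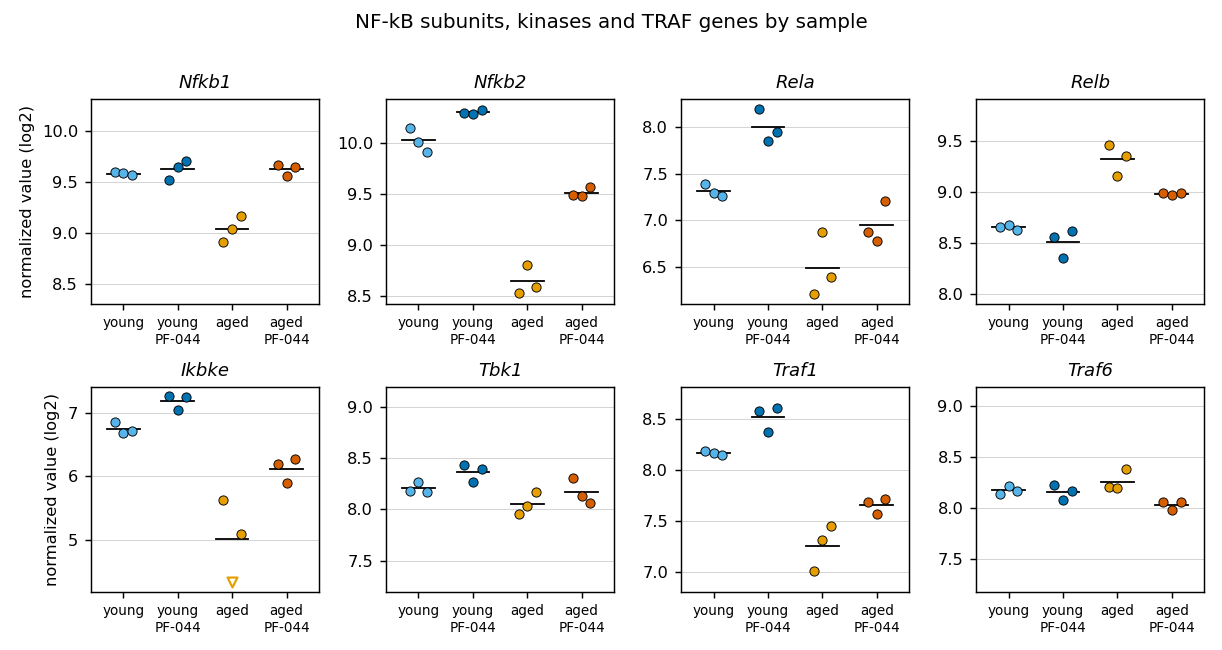
Normalized log2 values of Nfkb1, Nfkb2, Rela, Relb, Ikbke, Tbk1, Traf1 and Traf6 by group, with 1 point per mouse and a bar at the group mean (n = 3). An open triangle marks a value at the floor of 4.32. Nfkb2 is at 8.53 to 8.81 in aged untreated mice and at 9.48 to 10.32 in the other groups, while Relb is highest in aged untreated mice (9.16 to 9.45).

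The same age comparison can be made in mice that had been given PF-044. No mouse is in both comparisons, but they use the same variance per gene, fitted over all 12 samples. Their calls are therefore not independent of each other. Here 7 members rose and 7 fell, against a background of 37.5% of all genes (15.0% higher and 22.5% lower). The median was -0.16 over the members and -0.03 over all genes, and on centring on the reference genes 8 members rose and 5 fell. Of the 15 members called in untreated mice, 12 (80.0%) were called in the same direction in PF-044 mice, which is 85.7% of the 14 called there. Over all genes 351 calls were shared in this way, or 54.6% of the calls in untreated and 78.7% of those in PF-044 mice. Tlr8 rose (0.40, SE 0.10, limma adjusted p 0.0096) and Traf2 fell (-0.46, SE 0.12, limma adjusted p 0.0109) with age in PF-044 mice alone among the members that passed there, although a difference between the age effects was not shown for either (limma adjusted p 0.352 and 0.4). The Traf2 call was lost on centring on the reference genes (-0.29, limma adjusted p 0.177), by quantile normalization (-0.30, limma adjusted p 0.0879) and without young PF-044 replicate 1 or 3 (limma adjusted p 0.0558 and 0.0533).

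Most receptor genes called in untreated mice also passed in PF-044 mice. Tlr4 rose by 0.73 (SE 0.17), Tlr6 by 0.68 (SE 0.13), Tlr9 by 0.70 (SE 0.09) and Tlr1 by 0.49 (SE 0.11), and Tlr2 fell by 0.48 (SE 0.10). Rela fell by 1.04 (SE 0.18, limma adjusted p 7.15e-04), reading 7.85 to 8.20 in young and 6.78 to 7.20 in aged PF-044 mice with no overlap. Ikbke fell by 1.07 (SE 0.27), Nfkb2 by 0.79 (SE 0.08) and Cd14 by 0.55 (SE 0.07). The 3 members called in untreated mice alone were Tlr7, Nfkb1 and Tlr13: Tlr7 gave 0.23 (SE 0.14, limma adjusted p 0.254) and Nfkb1 0.00 (SE 0.07, limma adjusted p 1). The lack of a Tlr7 call depends on the setting. Centring on the reference genes made it a called rise (0.40, limma adjusted p 0.0423), as did array weights (0.34, limma adjusted p 0.0181). So did dropping the third aged PF-044 mouse (0.38, limma adjusted p 0.0391). The other settings tried gave no Tlr7 call. Tlr13 gave -0.37 (SE 0.14, limma adjusted p 0.0544) and passed as a fall without aged untreated replicate 2 (limma adjusted p 0.0305), and also without aged PF-044 replicate 1 or young PF-044 replicate 1 (-0.45 and -0.49). Ly96 was higher by 0.49 (SE 0.15, limma adjusted p 0.0256), a call that ended without aged PF-044 replicate 2 or young PF-044 replicate 1 or 3 (0.37 to 0.44, limma adjusted p up to 0.107).

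**Figure D3:**
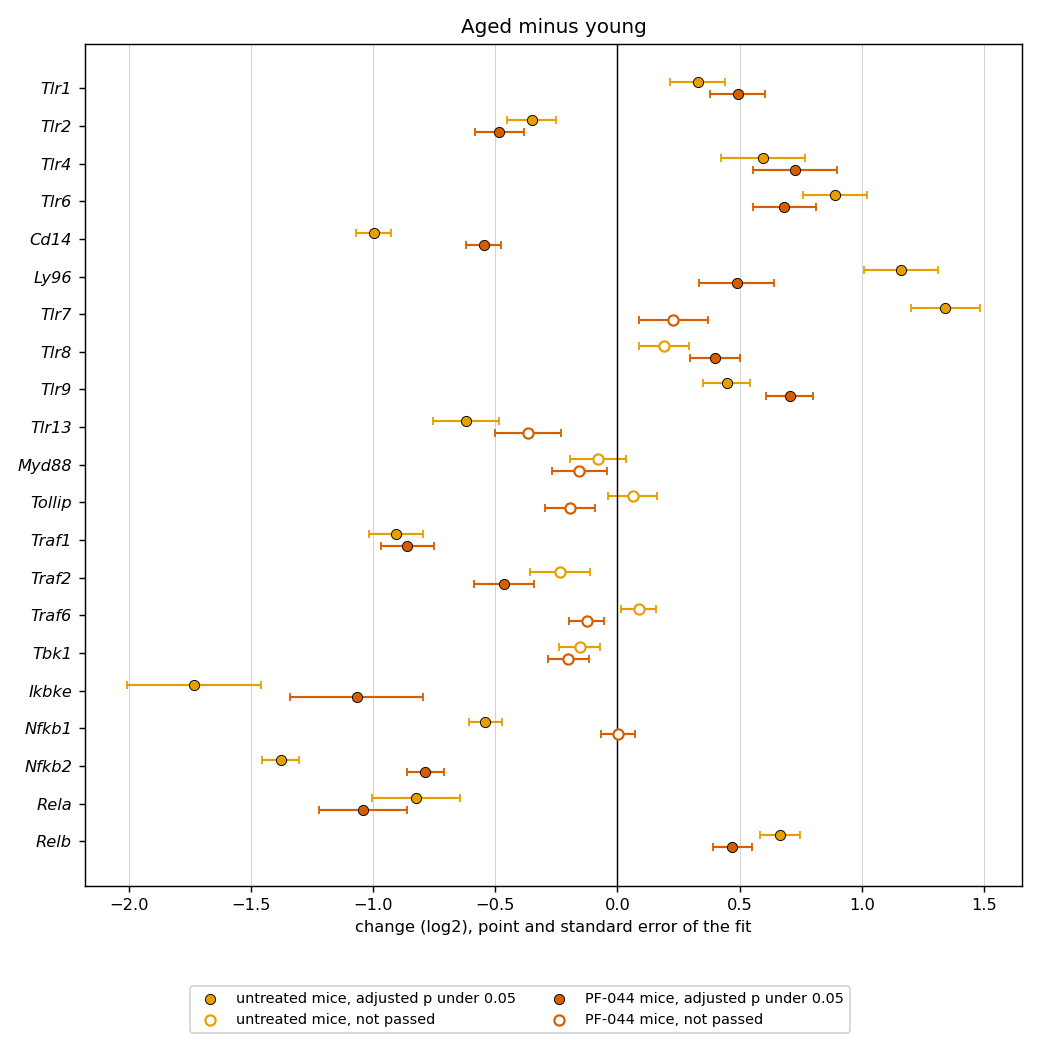
Change with age (aged minus young, log2) of the 21 tested members in untreated and in PF-044 mice, with the standard error of the limma fit. Filled points passed at an adjusted p under 0.05. Tlr7 lies at 1.34 in untreated and 0.23 in PF-044 mice, Nfkb1 at -0.54 and 0.00, and Rela at -0.82 and -1.04.

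The next comparison asks what PF-044 changed in aged mice. Transcripts of Tlr7, Ly96, Relb and Traf6 were lower with PF-044, and those of Nfkb2, Nfkb1, Cd14, Tlr1, Ikbke and Traf1 were higher. This made 6 rises and 4 falls among 21 members by limma, against a background of 40.9% of all genes (25.7% higher and 15.2% lower). The median was 0.11 over the members and 0.02 over all genes. Centring on the reference genes gave 4 rises and 8 falls, centring on the median of those genes that no sample had at the floor gave 5 and 7, and leaving out aged untreated replicate 2 gave 7 and 6. The aged untreated mice serve in this comparison and in the first one, so opposite signs in the 2 are not independent of each other, and the levels are given beside those of the young mice.

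Tlr7 read 8.20, 8.25 and 7.77 in aged PF-044 mice, within or near the span of the young untreated mice (7.76 to 7.99) and below all aged untreated ones (9.08 to 9.28). It fell by 1.11 (SE 0.14, limma adjusted p 7.46e-05). Ly96 read 8.49, 8.79 and 8.39 in aged PF-044 mice and 9.38 to 9.54 in aged untreated ones, a fall of 0.89 (SE 0.15, limma adjusted p 6.31e-04). Cd14 read 9.96, 10.06 and 9.80 in aged PF-044 mice. These values lay between the aged untreated mice (9.48 to 9.56) and the young untreated mice (10.44 to 10.60), and the rise of 0.43 (SE 0.07, limma adjusted p 4.73e-04) did not pass on centring on the reference genes (0.20, adjusted p 0.0514). The difference of Ly96 minus Cd14 within a sample was -1.47 to -1.27 in aged PF-044 mice and -0.10 to -0.02 in aged untreated mice.

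Of the other receptors, Tlr1 rose by 0.80 (SE 0.11, limma adjusted p 1.49e-04), with means of 8.07 ± 0.20 and 8.87 ± 0.09, and its aged PF-044 values were above those of all other groups. Tlr4 read 8.63, 8.86 and 8.35 in aged PF-044 mice, overlapping the aged untreated values, and gave -0.22 (SE 0.17, limma adjusted p 0.332). Tlr2 read 7.14, 7.30 and 7.28, also within reach of the untreated values, and gave -0.04 (SE 0.10, limma adjusted p 0.784). Tlr6 (-0.27), Tlr8 (0.22), Tlr9 (0.23) and Tlr13 (0.16) did not pass either. Tlr6 did pass as a fall on centring on the reference genes (-0.50, limma adjusted p 0.033), on centring on the median of those genes that no sample had at the floor (-0.40, limma adjusted p 0.0325) and with a common floor of 100 (limma adjusted p 0.0444).

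Of the subunit genes, Nfkb2 rose by 0.87 (SE 0.08, limma adjusted p 5.17e-06), reading 9.48, 9.48 and 9.57 in aged PF-044 mice. These values are above all aged untreated and below all young ones. Nfkb1 rose by 0.58 (SE 0.07, limma adjusted p 4.19e-05), reading 9.67, 9.56 and 9.65, which overlaps the young untreated span of 9.57 to 9.59. Rela read 6.88, 6.78 and 7.20 in aged PF-044 mice and overlapped the aged untreated values. Its change of 0.46 (SE 0.18, limma adjusted p 0.0604) did not pass with all samples, and without aged untreated replicate 2 it rose by 0.65 (limma adjusted p 0.00367). Relb fell by 0.34 (SE 0.08, limma adjusted p 0.00562) and read 8.97 to 8.99 in aged PF-044 mice, above the young untreated mice (8.63 to 8.68).

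In the middle of the chain, Traf1 rose by 0.40 (SE 0.11, limma adjusted p 0.013) on the deposited scale and did not pass under any of the 4 other scalings (0.17 to 0.27). Traf6 fell by 0.23 (SE 0.07, limma adjusted p 0.0263), a call that ended without aged PF-044 replicate 1 or 2 or aged untreated replicate 3, with changes of -0.24 to -0.16 and limma adjusted p up to 0.089. Ikbke read 6.20, 5.89 and 6.27 in aged PF-044 mice, above aged untreated replicates 1 and 3 (5.63 and 5.09). How these values compare with aged untreated replicate 2 cannot be read, since Ikbke was at the floor there. Ikbke rose by 1.10 (SE 0.27, limma adjusted p 0.00679). The size of this rise rests in part on the floor in aged untreated replicate 2, and it was 0.76 without that sample (limma adjusted p 0.00467). Myd88 read 7.74, 7.61 and 7.67 and gave -0.20 (SE 0.11, limma adjusted p 0.205). Myd88 and Tollip each passed as falls of 0.30 without aged untreated replicate 2 (limma adjusted p 0.0331 and 0.0415). Myd88 also passed on centring on the reference genes (-0.43), on the median of genes that no sample had at the floor (-0.32) and within each gene set (-0.38). Tollip also passed on centring on the reference genes (-0.45) and on that median (-0.34), with array weights (-0.31) and with a replicate block (-0.22). The summed level of the 6 macrophage markers was higher in aged PF-044 than in aged untreated mice and that of the B cell markers lower, as given above.

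In young mice PF-044 changed few members. With limma 3 rose (Tlr1, Rela and Nfkb2) and 0 fell, and at an unadjusted p under 0.05 these counts were 4 and 0. Of all genes 14.1% passed, 8.40% higher and 5.71% lower, and the medians were 0.01 over the members and 0.02 over all genes. Tlr1 read 8.31, 8.57 and 8.25 in young PF-044 mice against 7.68, 7.82 and 7.72 in untreated ones, a rise of 0.64 (SE 0.11, limma adjusted p 0.00309). Rela read 8.20, 7.85 and 7.94, above all young untreated values, and rose by 0.68 (SE 0.18, limma adjusted p 0.0263). Nfkb2 read 10.29, 10.28 and 10.32 and rose by 0.28 (SE 0.08, limma adjusted p 0.0314). The calls of Rela and Nfkb2 are fragile: each ended on leaving out any 1 of 5 of the 6 young mice (limma adjusted p up to 0.123 and 0.137). In Rela the sixth mouse is young PF-044 replicate 2, and in Nfkb2 it is young untreated replicate 1. The Rela call also ended by quantile normalization (0.65, limma adjusted p 0.108). That of Nfkb2 ended under all 4 other scalings. It ended as well with no filter on low values (limma adjusted p 0.0569) and without the eBayes trend (limma adjusted p 0.0676).

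The remaining values in young PF-044 mice lay close to those of young untreated mice. Tlr7 read 7.61, 8.06 and 7.87, a change of 0.00 (SE 0.14, limma adjusted p 1), and Cd14 10.48, 10.58 and 10.41, a change of -0.02 (SE 0.07, limma adjusted p 0.977). Ly96 read 7.83, 8.40 and 7.98 and gave -0.22 (SE 0.15, limma adjusted p 0.437). Tlr4 read 7.52, 8.12 and 8.03, with replicate 1 below all other mice, and gave -0.35 (SE 0.17, limma adjusted p 0.233). Tlr2 read 7.62, 7.89 and 7.65, Myd88 7.98, 7.86 and 7.65, and Nfkb1 9.52, 9.65 and 9.71, and their changes were 0.09, -0.12 and 0.04. Ikbke read 7.26, 7.05 and 7.25, above all young untreated values, and gave 0.44 (SE 0.27, limma adjusted p 0.371), with an SE that the floored aged sample enlarges (adjusted p 0.0748 without it). Traf1 gave 0.35 (SE 0.11, limma adjusted p 0.0568), and passed without any 1 of the aged untreated mice or without young PF-044 replicate 2.

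**Figure D4:**
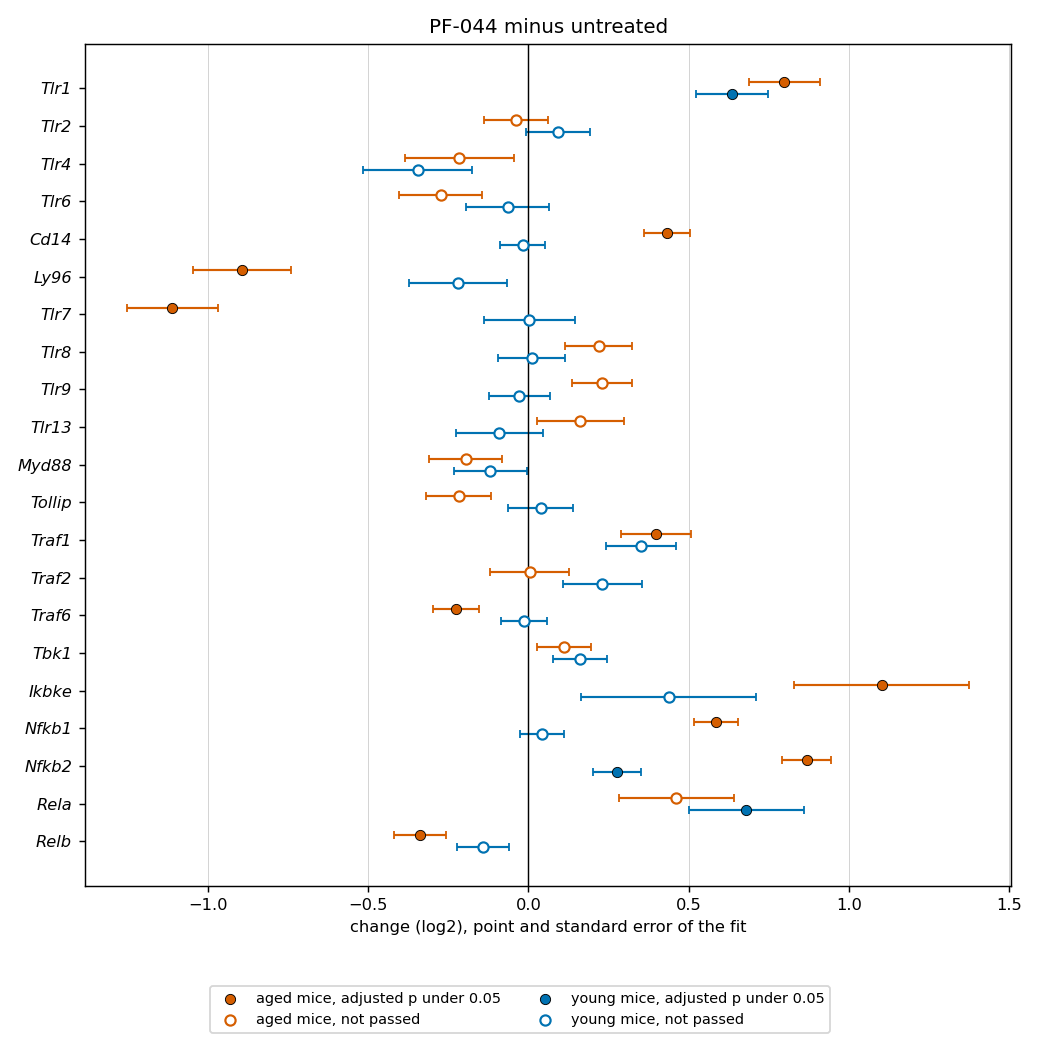
Change with PF-044 (treated minus untreated, log2) of the 21 tested members in aged and in young mice, with the standard error of the limma fit. Filled points passed at an adjusted p under 0.05. Tlr1 lies at 0.80 in aged and 0.64 in young mice, whereas Tlr7 lies at -1.11 and 0.00 and Nfkb1 at 0.58 and 0.04.

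Whether PF-044 acted differently at the 2 ages was tested as the difference of its effects, aged minus young. With limma, 3 members had a higher difference and 2 a lower one, against 25.7% of all genes (15.0% higher and 10.8% lower), and the medians were -0.05 over the members and 0.00 over all genes. Tlr7 differed by -1.11 (SE 0.20, limma adjusted p 0.00173) and Ly96 by -0.67 (SE 0.22, limma adjusted p 0.0383). Nfkb2 differed by 0.59 (SE 0.11, limma adjusted p 0.00186), Nfkb1 by 0.54 (SE 0.10, limma adjusted p 0.00172) and Cd14 by 0.45 (SE 0.10, limma adjusted p 0.00619). The Ly96 call was lost when any 1 of 7 samples was left out, namely aged PF-044 replicate 1 or 3, aged untreated replicate 1, young PF-044 replicate 2 or 3 and young untreated replicate 1 or 3, with differences of -0.73 to -0.51 and limma adjusted p up to 0.0953. It was also lost with no filter on low values (limma adjusted p 0.083), without the eBayes trend (limma adjusted p 0.0563) and with array weights (-0.53, limma adjusted p 0.0688). On centring on the reference genes, 0 members had a higher difference and the 2 lower ones were called, with Cd14 at 0.22, Nfkb1 at 0.31 and Nfkb2 at 0.36 (limma adjusted p 0.181, 0.164 and 0.0813). For Tlr1, which rose in both ages, the difference was 0.16 (SE 0.16, limma adjusted p 0.511), and for Rela it was -0.22 (SE 0.25, limma adjusted p 0.58). The difference for Ikbke, 0.66 (SE 0.39, limma adjusted p 0.251), passed without aged untreated replicate 1 (0.97, adjusted p 0.0347).

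Genes outside these 25 that act on the same chain were described as lists. The list of negative regulators, most of which limit Toll-like receptor signals, was lower in aged untreated mice. Of its 8 genes 0 rose and 7 fell (also 0 and 7 at an unadjusted p under 0.05), against 21.2% and 32.9% of all genes. The median was -1.32 against -0.07 over all genes. Nfkbiz, encoding the nuclear regulator I kappa B zeta, fell by 1.72 (SE 0.07, limma adjusted p 3.3e-09), reading 8.96 to 9.12 in young and 7.26 to 7.41 in aged untreated mice. Dusp1, encoding a phosphatase of MAP kinases, fell by 1.43 (SE 0.07), Tnfaip3, encoding the ubiquitin-editing enzyme A20, by 1.40 (SE 0.08), and Atf3, a repressor of cytokine genes, by 1.24 (SE 0.07). Nfkbia, encoding I kappa B alpha, fell by 0.91. The fall of Socs3 (0.34) turns to a rise of 0.06 on centring on the reference genes. Without aged untreated replicate 2, in which Nfkbie and Socs1 were at the floor, 0 rose and 6 fell.

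In PF-044 mice the negative regulators were likewise lower with age, with 0 rises and 5 falls (median -0.45, also 0 and 5 unadjusted). Over all genes 15.0% rose and 22.5% fell in that comparison. PF-044 in aged mice gave 3 rises and 0 falls (4 and 0 unadjusted), against 25.7% and 15.2% of all genes. The median was 0.51, or 0.25 without aged untreated replicate 2. Nfkbiz rose by 0.83 (SE 0.07), Tnfaip3 by 0.65 (SE 0.08) and Dusp1 by 0.36 (SE 0.07). In young mice 1 rose and 2 fell (8.40% and 5.71% over all genes), or 1 and 4 without aged untreated replicate 2. Nfkbiz rose by 0.38, and Dusp1 and Tnfaip3 fell by 0.40 and 0.31. The difference between ages passed for 5 of the 8, with 0 lower (5 and 0 unadjusted, median 0.69), and for 25.7% of all genes. Among the 5 were Tnfaip3 at 0.96 (SE 0.11, limma adjusted p 1.13e-04) and Dusp1 at 0.76 (SE 0.10, limma adjusted p 2.19e-04). Marker sums of macrophages, large resident macrophages, T cells, NK cells and mast cells were lowest in aged untreated mice too, and that of B cells was highest. What part these cells have in the regulator values was not tested.

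**Figure D5:**
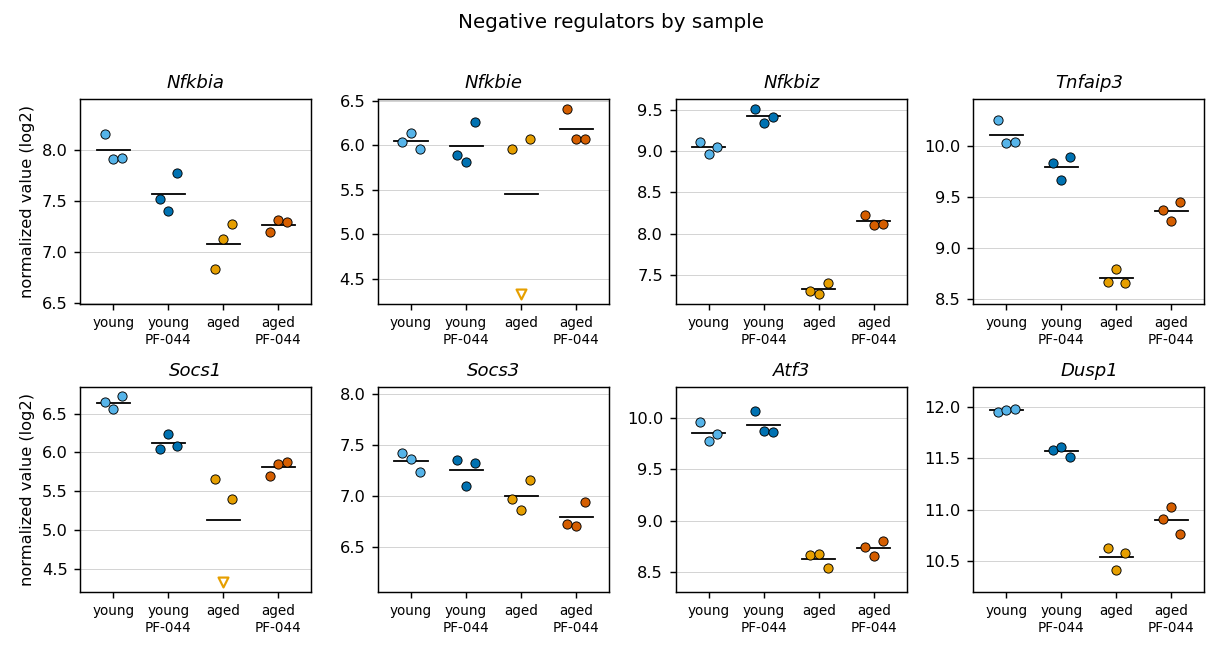
Normalized log2 values of the 8 negative regulators by group, with 1 point per mouse and a bar at the group mean (n = 3). An open triangle marks a value at the floor. Tnfaip3 reads 8.66 to 8.79 in aged untreated mice, 9.26 to 9.45 in aged PF-044 mice and 9.66 to 10.25 in young mice.

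Accessory proteins and receptors of the interleukin-1 family, which share the MyD88 route, had 5 rises and 2 falls among 8 genes with age in untreated mice (median 0.73), or 5 and 1 without aged untreated replicate 2. Of all genes, 21.2% rose and 32.9% fell in that comparison. Cd180 and Ly86, which encode the receptor RP105 and its partner MD-1, rose by 1.58 (SE 0.05, limma adjusted p 1.13e-09) and 1.63 (SE 0.15). Cd36, a scavenger receptor that assists TLR2, rose by 1.78 (SE 0.19) and Hmgb1, whose protein is a danger signal, by 1.05 (SE 0.08). RP105 and MD-1 are also abundant in B cells, whose markers Ms4a1 and Blk rose in the same mice. What part B cells have in the Cd180 and Ly86 values was not tested. In aged mice PF-044 gave 2 rises and 4 falls, with Cd36 falling by 1.42 and Ly86 by 0.61, and in young mice 1 rise, Cd180 at 0.82 (SE 0.05), and 0 falls (1 and 1 unadjusted). Over all genes 40.9% passed in aged and 14.1% in young mice. With age in PF-044 mice 4 rose and 0 fell (also 4 and 0 unadjusted), and in the difference of the PF-044 effects 0 were higher and 3 lower (1 and 4 unadjusted). The shares of all genes passing these were 37.5% and 25.7%.

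The list of kinases and ubiquitin partners, 14 genes, had 5 rises and 2 falls with age in untreated mice (median 0.12), or 5 and 1 without aged untreated replicate 2, against the same 21.2% and 32.9% of all genes. Mapk8, encoding the kinase JNK1, rose by 0.85 (SE 0.06) and Birc2, encoding the ligase cIAP1, by 0.95 (SE 0.09), while Mapk14, encoding the kinase p38 alpha, fell by 0.80 (SE 0.09). Map3k7, encoding the kinase TAK1, rose by 0.56 (SE 0.06). In PF-044 mice 4 rose and 1 fell with age, where 37.5% of all genes passed. PF-044 in aged mice gave 0 rises and 2 falls (2 and 4 unadjusted), Mapk8 falling by 0.63 and Birc2 by 0.57, and in young mice 0 rises and 1 fall (2 and 1 unadjusted), that of Peli1 by 0.46. The shares of all genes that passed were 40.9% in aged and 14.1% in young mice.

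Of 22 tested NF-kB target genes of macrophages, 7 rose and 9 fell with age in untreated mice, where 54.0% of all genes passed. Their median was -0.18, but 0.22 on centring on the reference genes and 0.19 without aged untreated replicate 2, so the list has no settled direction. Its members went both ways: Cxcl2, a neutrophil chemokine gene, fell by 2.24 (SE 0.08, limma adjusted p 1.17e-09) and Ccl3 by 1.66 (SE 0.13), while the anti-inflammatory cytokine gene Il10 rose by 2.67 (SE 0.13) and Cd83 by 1.31 (SE 0.11). In aged mice given PF-044, 6 rose and 5 fell, where 40.9% of all genes passed. Cxcl2 rose by 0.58 (SE 0.08) and Ccl5 by 1.10 (SE 0.06). Il10 fell by 2.18 (SE 0.13) and Cd83 fell by 1.06 (SE 0.11). Ccl3 gave 0.01. In young mice 3 rose and 1 fell with PF-044 (8 and 1 unadjusted), while 14.1% of all genes passed. Without aged untreated replicate 2 the counts were 6 and 2. With age in PF-044 mice 3 rose and 10 fell, or 6 and 11 without aged untreated replicate 2, which there changes the shared variance alone. With all samples 37.5% of all genes passed in that comparison.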

How the data were processed

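Gene transcripts of 12 mice (4 groups of 3) were measured with NanoString nCounter probes. The deposited values are normalized values on the log2 scale per gene, used as they are. Per the submitters' processing notes limma was used, with its version and purpose left out. The handling of background, scaling and floor was not given in the sources used here. Members were matched by symbol. RefSeq gene and promoter tables (GRCm38.p6) served for names, neighbours and promoters (chromosome 18 left out), and 1431 of 1448 symbols, including all 25 members, matched a current symbol.

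Genes at the floor in all samples (258) were left out. The remaining 1190 were fitted per gene, with 1 mean per group, by the lmFit and eBayes (trend) functions of limma 3.58.1 under R 4.3.3, with 8 residual and 3.27 prior degrees of freedom. The 5 contrasts were two-sided, Benjamini-Hochberg adjusted over all 1190 genes, with a threshold of 0.05. Changes are in log2 units with the SE of the fit. On simulated data, 63% to 82% of genes changed by 1 log2 unit and 34.5% to 61.5% of those changed by 0.5 were recovered, depending on the contrast, and at most 8.11% of calls were false. The simulation changed 200 genes and gave all samples the same noise per gene. It held no sample of few counts and no shift of scaling, so its rates may not hold for these data.

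Linear values were whole multiples of a step per sample within 3 sets of genes (99.9% of 11921 values above the floor, within 0.008), which gives count equivalents. They are inferred and cover counting error alone. The 12 samples were distinct, and no pair was merged.

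The members, the gene lists, the tests and the rule for named genes were chosen with earlier results of these data known. The rule gives values per mouse for members that changed by at least 1 log2 unit and for Tlr2, Tlr4, Cd14, Ly96, Myd88, Nfkb1 and Rela, and up to 4 genes with the smallest p from each list. Within-sample differences of 2 members were chosen after their values were seen, from pairs in the same gene set. Alternatives were 4 other scalings, 3 treatments of low values, the trend, array weights, a replicate block and leaving out each mouse. Centring within each gene set was added after seeing the data. A marker gene of the B cell list is not reported here, and the sums leave it out.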

Additional observations from a re-analysis of the deposited data

Results flagged for a closer look

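For 5 members the PF-044 effect differed between aged and young mice in the test of that difference (aged minus young, limma). Tlr7 gave -1.11, from an effect of -1.11 in aged and 0.00 in young mice, and Ly96 gave -0.67, from -0.89 and -0.22. Cd14 gave 0.45, from 0.43 and -0.02. Nfkb1 gave 0.54, from 0.58 and 0.04, and Nfkb2 gave 0.59, from 0.87 and 0.28. The aged untreated mice, which enter each of these, include the sample with few counts, and without it the values were -1.11, -0.68, 0.44, 0.54 and 0.68 in the same order, each with a limma adjusted p under 0.05. On centring on the reference genes Cd14 (0.22, limma adjusted p 0.181), Nfkb1 (0.31, limma adjusted p 0.164) and Nfkb2 (0.36, limma adjusted p 0.0813) did not pass. The Ly96 call was lost without any 1 of 7 samples (limma adjusted p up to 0.0953). It was also lost with no filter on low values, without the eBayes trend and with array weights (limma adjusted p 0.083, 0.0563 and 0.0688).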

How the results depend on the processing

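Over the 2305 results of members under the alternatives, 2181 kept their direction and their side of the threshold, 61 lost and 60 gained a call, and 3 turned or came to 0. A sign change between values that did not pass was not counted. Centring on the reference genes turned Tlr2 with age in untreated mice to 0.055. A common floor of 100 linear units turned Ikbke with PF-044 to 0 in aged mice and to -0.44 in the difference of effects, since all aged Ikbke values are then at the floor. The number of all genes called with PF-044 in young mice, 168, was 107 on centring on the reference genes and 388 with array weights, and the 3 members called became 1 with quantile normalization and 5 with a common floor of 100 or with array weights. The 5 members called in the difference of effects became 2 on centring on the reference genes and 9 with array weights. The cause of these shifts was not tested.

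Leaving out each mouse in turn gave 572 to 660 genes and 13 to 15 members for age in untreated mice, 389 to 512 and 9 to 13 for PF-044 in aged mice, 101 to 237 and 1 to 4 for PF-044 in young mice, 354 to 544 and 12 to 16 for age in PF-044 mice, and 255 to 363 and 4 to 5 for the difference. The labels do not say that replicate numbers pair these mice. Correlations of same-numbered mice were mixed (7 of 18 pairs over 0.1, from -0.30 to 0.54) and do not settle this. A replicate block was also fitted. It lost 0 and gained 2 of 105 member calls, both with PF-044 in aged mice: Tlr9 (0.23, limma adjusted p 0.0406) and Tollip (-0.22, limma adjusted p 0.0472).

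Of the calls over all genes, the share that was higher was 39.2% for age in untreated mice as deposited and 45.5% to 71.3% under 4 other scalings, 62.8% and 34.9% to 59.3% for PF-044 in aged mice, 59.5% and 47.2% to 51.4% in young mice, 39.9% and 51.3% to 63.2% for age in PF-044 mice, and 58.2% and 26.8% to 57.1% for the difference. With 3 mice a group and few counts in aged untreated replicate 2, the precision of every value is limited, and the deposited scaling cannot be checked against control probes here.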

Other observations

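Sensors outside the Toll-like receptor family and their adaptors, 8 genes, had 3 rises and 3 falls with age in untreated mice. Over all genes 54.0% passed in that comparison, 21.2% higher and 32.9% lower. Nlrp3, the sensor of an inflammasome, fell by 2.30 (SE 0.24, limma adjusted p 7.34e-06). It read 6.94 to 7.25 in young untreated mice, 4.79 and 5.15 in aged untreated replicates 1 and 3, and was at the floor in replicate 2. Without replicate 2 it fell by 2.08. Nod1, a sensor of bacterial peptidoglycan, fell by 0.81 (SE 0.12), while Malt1 and Bcl10, partners in a signalling complex downstream of lymphocyte and lectin receptors, rose by 1.01 (SE 0.08) and 0.70 (SE 0.11). In aged mice given PF-044, 4 rose and 3 fell, against 25.7% and 15.2% of all genes. Nod1 rose by 0.76 (SE 0.12) and Malt1 fell by 0.73 (SE 0.08). Clec7a, encoding the fungal receptor dectin-1, rose by 1.72 (SE 0.23). It was at the floor in aged untreated replicate 2, and the rise was 1.43 when that mouse was left out.

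Of 7 interferon genes and regulatory factors, 2 rose and 3 fell with age in untreated mice, where 54.0% of all genes passed. The 3 falls (Irf1, Irf4 and Irf8) turn positive on centring on the reference genes. Irf7, which acts downstream of TLR7 and TLR9, rose by 1.30 (SE 0.12, limma adjusted p 2.57e-06). It read 7.12 to 7.13 in young untreated, 6.40 to 6.65 in young PF-044, 8.23 to 8.53 in aged untreated and 6.78 to 7.06 in aged PF-044 mice. With PF-044 it fell by 1.52 (SE 0.12) in aged and 0.57 (SE 0.12) in young mice, and the difference was -0.94 (SE 0.17, limma adjusted p 0.002). With PF-044 in aged mice Irf8 rose by 0.79 (SE 0.12), and it gave 0.76 (SE 0.17) in the difference.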
